A study of Homo sapiens with 4 samples.

Results

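The genes described here encode enzymes that modify foreign compounds, reactive aldehydes, steroids, retinoids and lipid mediators: the cytochromes P450 (CYP), aldehyde dehydrogenases (ALDH), aldo-keto reductases (AKR), cytosolic, omega, zeta and kappa glutathione S-transferases (GST), and UDP-glucuronosyltransferases (UGT) of families 1 and 2. Members were chosen by gene symbol, leaving out CYP51A1, ALDH1L2 and pseudogenes, and by a count of 10 or more in at least 2 of the 4 libraries. Of 25369 genes in the table, 121 were enzyme rows of these families and 64 passed the count filter. These were 27 CYP, 17 ALDH, 9 AKR and 10 GST genes and 1 UGT gene. The other 57 enzyme rows reached at most 13 reads in any library, and 22 of them had no read at all.

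They were measured in H226, a long-established line from a human squamous cell carcinoma of the lung, engineered so that doxycycline switches on a short hairpin RNA. In 2 cultures (shControl) the hairpin was non-targeting, and in the 2 others (shp63) it was directed at p63, a transcription factor of basal epithelial cells. Every culture, shControl included, had been kept in 1 µg/mL doxycycline for 6 days. With 1 construct named per group, effects of the hairpin itself and of p63 loss cannot be told apart, and the labels do not say whether the lines were clones or pools.

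Cytochromes P450 insert oxygen into their substrates with electrons passed on by partner reductases. Aldehyde dehydrogenases oxidise aldehydes to acids, aldo-keto reductases reduce carbonyls to alcohols, and transferases of the GST and UGT families couple glutathione or glucuronic acid to the products. Several of these genes are textbook targets of the aryl hydrocarbon receptor (AHR) or of the antioxidant factor NRF2, and GSTP1 is the abundant glutathione transferase of airway epithelium.

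The hairpin's target checked the labels. Reads on TP63 numbered 7533 and 7364 in shControl but 1596 and 1530 in shp63. Each library summed to between 51926832 and 53924761 counted reads, and levels are given as CPM, counts scaled to a common library size with a factor for composition. Keratin and desmosome markers of squamous epithelium were present, with KRT5 at a mean of 757 CPM in shControl and 148 CPM in shp63. KRT17 of the same list was at means of 3898 and 3062 CPM, and SOX2 at 0.229 and 0.0395 CPM. Of the 8 markers of that list, TP63 included, 7 were lower in shp63. The other 1, KRT6A, was higher, with means of 14.0 and 18.5 CPM. Of 6 hepatocyte markers 1, SERPINA1, reached 10 reads in 2 libraries, with means of 2.28 CPM in shControl and 14.6 CPM in shp63, while ALB and TTR were at or near 0. The 6 markers of club and ciliated airway cells summed to 2.02 to 3.14 CPM in every library, with CYP2F1 and SCGB3A2 at 0. Leukocyte markers, through CD14 and CD68, summed to 12.9 and 14.3 CPM in shControl and to 74.5 and 78.6 CPM in shp63. LYZ of that list rose from a mean of 0.0183 to 0.527 CPM, and CD3E had means of 0 and 0.0783 CPM. ITGAM fell from a mean of 0.695 to 0.274 CPM, and PTPRC was at a mean of 0.14 CPM or less in either group. Endothelial markers, through CDH5, summed to 59.9 and 65.0 CPM and to 190 and 191 CPM. PECAM1 of that list rose from a mean of 1.04 to 1.89 CPM, while VWF fell from a mean of 4.66 to 1.30 CPM. KDR and TEK were at means of 0.09 CPM or less. Mesothelial markers, through MSLN and UPK3B, summed to 334 and 361 CPM against 630 and 636 CPM. WT1, CALB2 and LRRN4 of that list were at means of 0.147 CPM or less in either group, and ITLN1 was at 0. Fibroblast markers, nearly all through COL1A1, summed to 97.2 and 102 CPM against 67.1 and 75.2 CPM. The others of that list were at means of 0.402 CPM or less, with DCN at 0. These were cultures of 1 line, and whether any such cells were present, or what part they had in the enzyme results, was not tested. In bulk RNA, fewer cells of a type and less RNA per cell cannot be told apart.

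Many of these enzymes shifted while their total hardly did. Reads on the 64 members made up 0.369% and 0.365% of all counts in shControl and 0.355% and 0.358% in shp63. Within that total, GSTP1 went from 21.1% and 20.4% of the members' reads to 8.39% and 8.51%. ALDH1A3 went from 7.92% and 8.69% to 17.1% and 17.7%, and GSTK1 from 6.72% and 6.84% to 16.3% and 15.9%. The replicates of a group thus differed by less than 1 percentage point in each of these shares. By family, ALDH genes took 47.3% and 48.0% of the members' reads in shControl and 55.0% and 55.3% in shp63, and AKR genes 14.2% and 13.9% against 9.91% and 9.86%. CYP genes, the most numerous family, took 4.47% to 5.06% in every library.

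**Figure D1:**
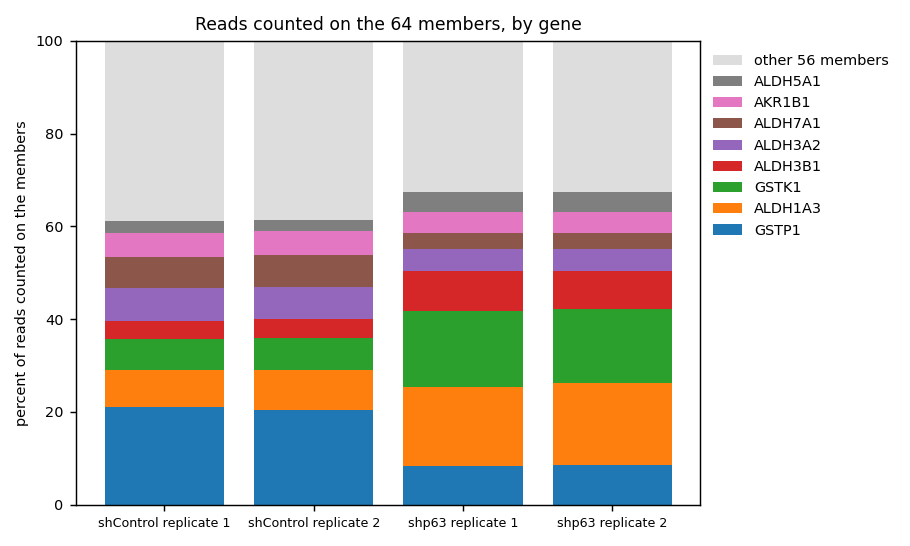
Percent of the reads counted on the 64 members that fell on each of the 8 genes with the largest shares, stacked for each of the 4 libraries (x axis, group and replicate). GSTP1 takes 21.1% and 20.4% in shControl and 8.39% and 8.51% in shp63, while ALDH1A3 and GSTK1 take larger shares in both shp63 libraries.

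Differences were tested on all 14901 genes that passed a filter on low counts (edgeR quasi-likelihood test, Benjamini-Hochberg adjustment, called at an adjusted p under 0.05). Because 74.0% of all tested genes were called, a call alone says little about a member: 49 of the 64 members (76.6%) were called, 28 higher and 21 lower in shp63, where 36.9% and 37.1% of all tested genes were called higher and lower. A test against a change of 1.5-fold was therefore used as well, and "beyond 1.5-fold" below refers to it. An adjusted p given below is from the test against no change unless stated otherwise. It called 32 of the 64 members (50%), 20 higher and 12 lower, against 22.7% of all tested genes. The higher calls were 31.2% of members against 12.7% of all genes, and the lower calls 18.8% against 10%. For 55 of the 64 members no library of one group lay within the range of the other, against 86.4% of all tested genes. Such a lack of overlap, where given for single members below, was thus common among all genes. The members' median log2 fold change was 0.08, beside -0.01 over all genes tested, and their median absolute log2 fold change was 0.76 beside 0.36. Members thus moved far but in both directions. CYP4F8, CYP4X1 and CYP4Z1 passed the count filter through the shp63 libraries alone and so had to be higher there, and without them 29 of 61 members were beyond 1.5-fold. The 61 still include CYP11A1, which reached 10 reads in both libraries only in shp63, and CYP4F2, which did so only in shControl. Of the 58 members with 10 or more reads in every library, 27 were beyond 1.5-fold, 16 higher and 11 lower. For a single gene, 2 libraries against 2 allow an exact two-sided permutation p no smaller than 0.333, and the calls lean on a spread estimated over all genes.

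**Figure D2:**
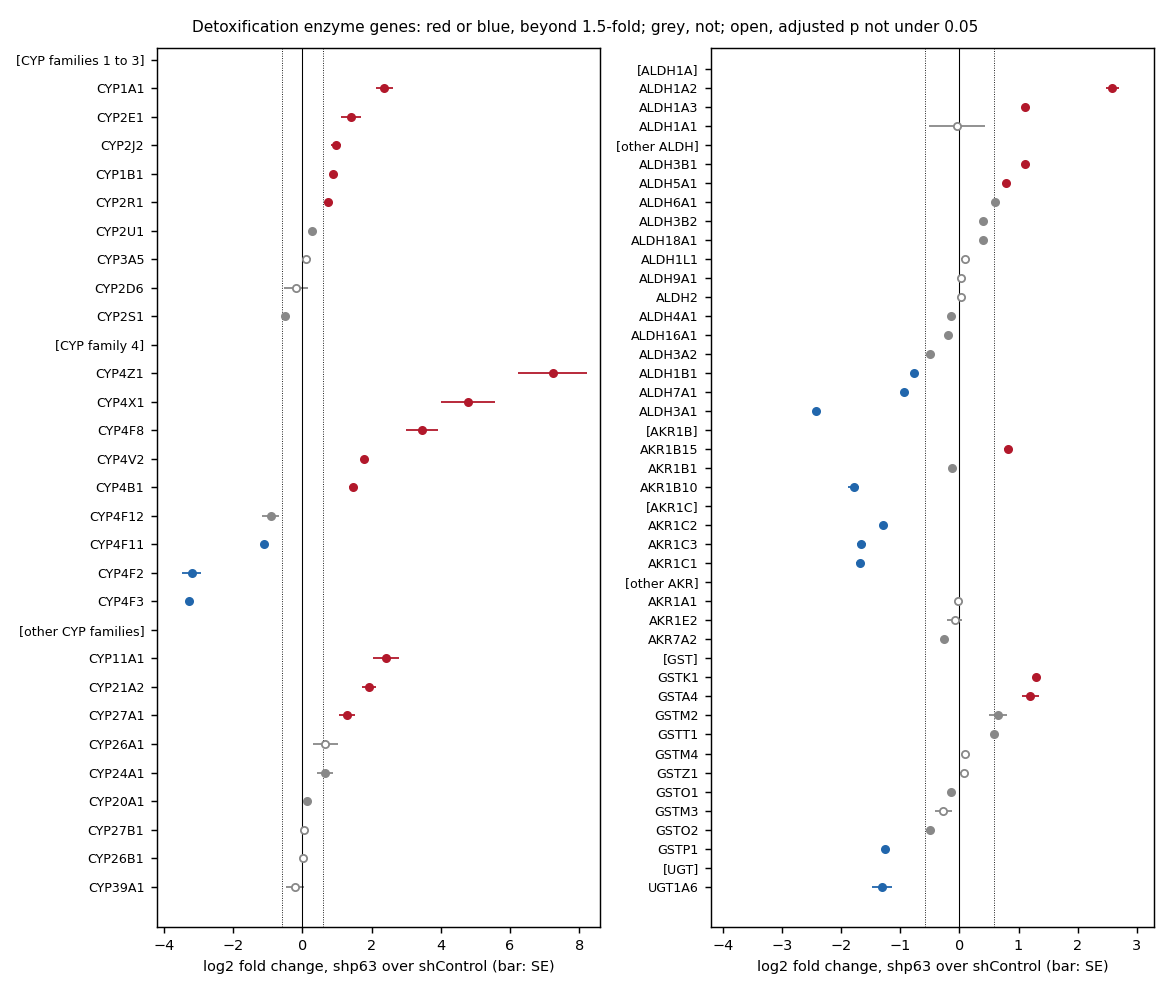
Log2 fold change of shp63 over shControl with its standard error for all 64 members, grouped by role; red and blue points passed the test against 1.5-fold (dotted lines), filled grey points only the test against no change, and open points neither. Values run from -3.27 for CYP4F3 upward; the fitted values of CYP4X1 and CYP4Z1 rest on 1 and 0 reads in shControl and are no measure of size, and the direction of these and of CYP4F8 was set by the count filter.

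CYP family 4, whose enzymes hydroxylate fatty acids and eicosanoids at the end of the chain, moved in both directions. Of the 6 members that did not enter through shp63 alone, all were called, 2 higher and 4 lower, where 74.0% of all tested genes were called. Beyond 1.5-fold were 5 of the 6 (83.3%, against 22.7% of all tested genes). The other 3, CYP4F8, CYP4X1 and CYP4Z1, are described without a test. CYP4F3, which inactivates leukotriene B4, was at 47.0 and 50.3 CPM in shControl and at 4.71 and 5.41 CPM in shp63. It fell 9.63-fold (log2 fold change -3.27, SE 0.065, adjusted p = 5.17e-21), the largest fall among the members. CYP4F2, which hydroxylates vitamin K, fell 9.18-fold from 1.98 and 2.01 CPM to 0.288 and 0.140 CPM (SE 0.264 on the log2 scale, adjusted p = 3.35e-10). On that scale it fell by 3.20, and without replicate 1 of shp63 it fell by 3.81. With 15 and 7 reads in shp63, it reached 10 reads in both libraries only in shControl. Its coding sequence was 91.5% identical to that of the more abundant CYP4F3, with 15.3% of 50-base windows shared. The fall of CYP4F2 therefore depends on how shared reads were assigned, which was not tested. CYP4F11 fell 2.15-fold from 34.9 and 34.3 CPM to 16.0 and 16.2 CPM (adjusted p = 7.10e-15). CYP4F12 fell from 0.866 and 1.21 to 0.50 and 0.598 CPM (adjusted p = 0.00237), not beyond 1.5-fold, and was not called without replicate 2 of shControl (adjusted p = 0.0513).

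The risers of family 4 were CYP4V2 and CYP4B1. CYP4V2, a fatty acid hydroxylase known from a retinal dystrophy, was at 12.1 and 13.2 CPM in shControl and at 44.2 and 42.9 CPM in shp63, a 3.44-fold rise (log2 fold change 1.78, SE 0.052, adjusted p = 3.62e-18). CYP4B1, an enzyme of lung, rose 2.76-fold from 2.52 and 2.36 CPM to 6.96 and 6.56 CPM (adjusted p = 4.87e-11). For these and the 4 genes that fell, no library of one group lay within the range of the other. CYP4F8, a prostaglandin hydroxylase, had 4 and 4 reads in shControl and 57 and 28 in shp63. CYP4Z1 had no read in shControl and 19 and 17 in shp63, at least 12.8-fold higher against a floor of 3 counts over the group. CYP4X1 had 1 and 0 reads against 18 and 14, a ratio of 34.2 with an exact 95% counting interval from 5.71 to 1393, which covers counting error only. That these 3 genes were higher in shp63 follows from how they passed the count filter.

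Promoters (250 bases before to 50 after the start of the gene, RefSeq, placed on GRCh37 by an exact match) were on hand for 52 of the 64 members. They were searched for the core of the antioxidant response element (TGACNNNGC, both strands), the core of the xenobiotic response element (GCGTG, both strands), the p53 family half-site and TATAAA on the forward strand, none of which overlapped another in the sequences printed. The promoters of CYP4F3 and CYP4V2 are shown because these were the strongest fall and one of the 2 strongest rises among members of at least 5 CPM with an entry. Capitals mark matches.
CYP4F3, chr19:15751872-15752171, plus strand: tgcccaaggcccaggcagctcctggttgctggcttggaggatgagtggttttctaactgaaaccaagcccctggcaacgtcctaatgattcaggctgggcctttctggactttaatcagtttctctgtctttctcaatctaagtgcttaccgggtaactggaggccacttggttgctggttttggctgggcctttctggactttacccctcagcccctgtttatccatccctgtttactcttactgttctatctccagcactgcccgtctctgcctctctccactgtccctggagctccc
CYP4V2, chr4:187112471-187112770, plus strand: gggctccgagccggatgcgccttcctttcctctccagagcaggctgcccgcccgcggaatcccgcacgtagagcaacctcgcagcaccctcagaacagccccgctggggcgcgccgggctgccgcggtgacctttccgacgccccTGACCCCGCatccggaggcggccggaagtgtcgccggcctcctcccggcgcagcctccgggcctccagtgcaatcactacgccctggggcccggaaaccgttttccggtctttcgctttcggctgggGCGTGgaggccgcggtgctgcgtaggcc
The CYP4V2 promoter, with 72.0% G and C, held an antioxidant core and a xenobiotic core. The CYP4F3 promoter, with 53% G and C, held none of the 4 patterns.

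CYP families 1 to 3, which hold the classical drug and carcinogen oxidases, rose more often than they fell. Of 9 members 6 were called higher and 1 lower, or 77.8% called against 74.0% of all tested genes. The 5 beyond 1.5-fold were all higher, and made up 55.6% of this group against 22.7% of all tested genes. CYP1A1 had 14 and 22 reads in shControl and 91 and 84 in shp63. In CPM these were 0.252 and 0.409 against 1.75 and 1.68, a 5.16-fold rise (log2 fold change 2.37, SE 0.243, adjusted p = 1.19e-08). CYP1B1 rose 1.83-fold from 5.83 and 6.05 CPM to 10.7 and 11.0 CPM (adjusted p = 1.29e-09). CYP2R1, a vitamin D 25-hydroxylase, rose 1.68-fold to a mean of 10.3 CPM from 6.12 CPM (adjusted p = 2.32e-08). CYP2J2, an arachidonic acid epoxygenase, rose 1.96-fold to 2.51 CPM (adjusted p = 8.27e-06), and CYP2E1, the ethanol oxidase, rose 2.63-fold to 0.825 CPM (adjusted p = 0.000191). Both shp63 libraries were above both shControl libraries for each of these genes. The most abundant member of this group in shp63 was CYP2U1, which rose slightly from 10.9 and 11.5 CPM to 13.6 and 13.7 CPM (1.22-fold, adjusted p = 0.000511). CYP2S1 fell 1.42-fold from 8.13 and 8.26 to 6.09 and 5.44 CPM. CYP3A5, with means of 3.31 and 3.58 CPM, and CYP2D6, with 0.366 and 0.324 CPM, were not called. In the edgeR test against 1.5-fold the adjusted p was 0.0332 for CYP2R1 and 0.0128 for CYP2J2. DESeq2's test against 1.5-fold did not call CYP1B1, CYP2E1, CYP2J2 or CYP2R1. That of limma-voom did not call CYP2J2 or CYP2R1, and with library totals alone CYP2R1 was not beyond 1.5-fold.

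The remaining P450 families include orphans without an established substrate, and most act on sterols, steroid hormones, vitamin D and retinoic acid. Of their 9 members 5 were called, all higher, or 55.6% against 74.0% of all tested genes. Beyond 1.5-fold were 3 (33.3%, against 22.7% of all tested genes), each of them under 3 CPM. CYP11A1, the side-chain cleavage enzyme that starts steroid synthesis, had 11 and 4 reads in shControl and 37 and 39 in shp63. Its 5.34-fold rise (adjusted p = 4.61e-06) became 9.68-fold without replicate 1 of shControl. With 10 or more reads in only 1 shControl library, CYP11A1 passed the count filter only together with shp63 libraries. CYP21A2, the steroid 21-hydroxylase, rose 3.79-fold from 0.541 and 0.614 CPM to 2.10 and 2.29 CPM (adjusted p = 9.40e-09), but its near-identical pseudogene CYP21A1P may share reads with it. CYP27A1, the sterol 27-hydroxylase, rose 2.44-fold from 0.541 and 0.409 CPM to 1.13 and 1.20 CPM (adjusted p = 4.88e-05), a rise that DESeq2 did not call beyond 1.5-fold. The vitamin D enzymes differed in call: CYP24A1, which inactivates the hormone, rose 1.57-fold to 1.13 CPM (adjusted p = 0.0102, but 0.110 in DESeq2), and CYP27B1, which makes it, had means of 7.05 and 7.25 CPM and was not called. Without replicate 2 of shp63 CYP24A1 was not called either (adjusted p = 0.111). The difference between them was not tested. The retinoic acid hydroxylases CYP26A1, at 0.284 and 0.448 CPM, and CYP26B1, at 12.6 and 12.8 CPM, were not called, nor was CYP39A1, an oxysterol hydroxylase, at 0.759 and 0.657 CPM (each the means of shControl and shp63). CYP26A1 was called higher without replicate 2 of shp63. CYP20A1, the most abundant gene of this group, was at 15 and 15.3 CPM in shControl and at 16.6 and 17.0 CPM in shp63. That small rise (adjusted p = 0.0268) was not called by DESeq2, with library totals alone, or without any of 3 of the libraries in turn.

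The retinaldehyde dehydrogenases of the ALDH1A group make retinoic acid. ALDH1A3, the most abundant of them, was at 284 and 307 CPM in shControl and at 623 and 657 CPM in shp63. It rose 2.17-fold (log2 fold change 1.11, SE 0.038, adjusted p = 1.63e-16), with both shp63 libraries above both shControl libraries. ALDH1A2 rose 5.99-fold from 1.91 and 1.67 CPM to 11.4 and 10.1 CPM (log2 fold change 2.58, SE 0.110, adjusted p = 2.83e-15). ALDH1A1, a marker of some lung cancer stem-like cells, was barely detected, with 9 and 12 reads in shControl against 13 and 6, and its groups overlapped. The ALDH1A2 promoter is shown as the strongest rise of at least 5 CPM, with 74.0% G and C and 2 xenobiotic cores in capitals.
ALDH1A2, chr15:58357860-58358159, minus strand: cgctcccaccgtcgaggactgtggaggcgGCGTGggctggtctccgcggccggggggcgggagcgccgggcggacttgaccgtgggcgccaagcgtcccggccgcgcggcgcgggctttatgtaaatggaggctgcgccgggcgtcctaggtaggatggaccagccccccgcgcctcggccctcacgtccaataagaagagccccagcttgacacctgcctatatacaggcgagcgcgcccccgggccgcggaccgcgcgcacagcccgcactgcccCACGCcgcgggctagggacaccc
Among 14 tested genes of retinoid handling outside these families, 10 were called higher and 2 lower, and 3 were beyond 1.5-fold, all higher. With library totals alone, 6 in place of 10 were called higher. RDH10, which makes retinaldehyde from retinol, rose 2.44-fold from a mean of 60.7 to 148 CPM, and RDH13 rose 1.33-fold. RARG, a retinoic acid receptor, and RDH11 fell by 0.26 and 0.16 on the log2 scale.

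The other 14 ALDH genes moved in both directions, with 5 called higher, 6 lower and 3 not called. The share called was 78.6%, against 74.0% of all tested genes. ALDH3A1, which oxidises aldehydes from lipid peroxidation and is prominent in cornea and airway, was at 119 and 116 CPM in shControl and at 21.1 and 22.6 CPM in shp63. It fell 5.37-fold (log2 fold change -2.42, SE 0.046, adjusted p = 2.10e-21). ALDH7A1, an enzyme of lysine breakdown, fell 1.92-fold from 246 and 240 CPM to 123 and 129 CPM (adjusted p = 3.00e-17). The mitochondrial ALDH1B1 fell 1.70-fold from 65.4 and 65.4 CPM to 37.4 and 39.7 CPM (adjusted p = 4.51e-13). These 3 were the falls beyond 1.5-fold, and ALDH3A2, the fatty aldehyde dehydrogenase and the most abundant of the 14 in shControl, fell less, from 249 and 247 CPM to 175 and 176 CPM (1.41-fold, adjusted p = 7.27e-13). ALDH3B1, which acts on membrane lipid aldehydes, rose 2.17-fold from 141 and 142 CPM to 311 and 303 CPM (log2 fold change 1.12, SE 0.030, adjusted p = 7.37e-19). ALDH5A1, which clears succinic semialdehyde from GABA, rose 1.73-fold from 92.3 and 90.4 CPM to 156 and 161 CPM (adjusted p = 2.38e-15). ALDH6A1, ALDH3B2 and ALDH18A1 rose 1.52-fold, 1.32-fold and 1.31-fold, none beyond 1.5-fold by the test. ALDH16A1 fell 1.14-fold and ALDH4A1, an enzyme of proline breakdown, 1.10-fold, the latter not called by DESeq2 (adjusted p = 0.114) or without replicate 1 of either group. ALDH2, the acetaldehyde dehydrogenase, stood at 147 and 147 CPM against 150 and 149 CPM and was not called. Neither was ALDH9A1, with means of 71.3 and 72.5 CPM, nor the folate enzyme ALDH1L1, with means of 10.8 and 11.5 CPM. ALDH2 was called lower with library totals alone (log2 fold change -0.06).

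Aldo-keto reductases fell, with 1 exception among the 7 called of 9 (77.8%, against 74.0% of all tested genes). The 3 AKR1C members, which reduce steroid and prostaglandin ketones, all fell beyond 1.5-fold. AKR1C1 was at 29.0 and 25.8 CPM in shControl and at 8.65 and 8.38 CPM in shp63, a 3.22-fold fall (log2 fold change -1.69, SE 0.067, adjusted p = 8.69e-16). AKR1C3 fell 3.16-fold from 34.8 and 29.8 CPM to 10.8 and 9.63 CPM (adjusted p = 2.56e-11). AKR1C2, the most abundant, fell 2.46-fold from 131 and 123 CPM to 53 and 50.5 CPM (adjusted p = 2.25e-17). For each of them both shp63 libraries lay below both shControl libraries. Their coding sequences are so alike that reads can be hard to assign: AKR1C1 and AKR1C2 were identical at 98.0% of 969 coding bases, and 51.6% of the 50-base windows of one occurred in the other. AKR1C3 was 91.4% identical to AKR1C1 and 91.0% to AKR1C2. The 90 coding bases in which AKR1C1 and AKR1C2 differ most (positions 73 to 162 from the start codon, GRCh37) are shown because only such stretches tell the genes apart, with the 10 differing bases in capitals.
AKR1C1: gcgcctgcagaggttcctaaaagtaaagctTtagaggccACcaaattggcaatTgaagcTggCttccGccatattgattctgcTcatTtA
AKR1C2: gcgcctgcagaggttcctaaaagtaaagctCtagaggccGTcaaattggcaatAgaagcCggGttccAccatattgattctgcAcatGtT
The AKR1C1 promoter is shown as the strongest fall after CYP4F3 among members of at least 5 CPM with an entry. It held 41.0% G and C and none of the 4 patterns.
AKR1C1, chr10:5005357-5005656, plus strand: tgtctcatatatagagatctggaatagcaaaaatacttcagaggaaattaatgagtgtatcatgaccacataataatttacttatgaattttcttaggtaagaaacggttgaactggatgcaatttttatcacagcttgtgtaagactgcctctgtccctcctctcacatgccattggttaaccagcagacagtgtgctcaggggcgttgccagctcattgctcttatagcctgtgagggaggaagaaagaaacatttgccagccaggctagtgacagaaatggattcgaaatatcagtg

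Within the AKR1B group, neighbouring genes went opposite ways. AKR1B10, which reduces retinaldehyde and lipid aldehydes, was at 11.2 and 10.2 CPM in shControl and at 3.08 and 3.13 CPM in shp63, a 3.45-fold fall (log2 fold change -1.79, SE 0.093, adjusted p = 1.11e-13). Its neighbour AKR1B15 was at 9.87 and 9.39 CPM in shControl and at 16.4 and 17.6 CPM in shp63, a 1.77-fold rise (log2 fold change 0.82, SE 0.067, adjusted p = 2.46e-10). DESeq2 called this rise but not as beyond 1.5-fold. The coding sequences of the pair were 93.5% identical, and 19.8% of the 50-base windows of AKR1B10 occurred in AKR1B15, so the size of each change depends on how shared reads were assigned. AKR1B1, aldose reductase, was by far the most abundant of the group and went from 183 and 182 CPM to 166 and 170 CPM, a fall of 1.09-fold (adjusted p = 0.000848). Of the other AKR genes AKR7A2, which reduces succinic semialdehyde and aflatoxin aldehyde, fell 1.20-fold from 26.4 and 27.0 CPM to 21.5 and 22.9 CPM. AKR1A1, the most abundant of these at 82.9 and 78.5 CPM against 78.9 and 80.2 CPM, and AKR1E2, with means of 2.84 and 2.68 CPM, were not called. With library totals alone AKR1A1 was called lower (log2 fold change -0.11).

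Glutathione S-transferases exchanged their leading gene. GSTP1 was at 758 and 721 CPM in shControl and at 306 and 316 CPM in shp63, a 2.38-fold fall (log2 fold change -1.25, SE 0.034, adjusted p = 1.08e-18). GSTK1, the mitochondrial and peroxisomal kappa enzyme, was at 241 and 242 CPM in shControl and at 593 and 590 CPM in shp63, a 2.45-fold rise (log2 fold change 1.29, SE 0.031, adjusted p = 8.87e-20). Per kilobase of the reference transcript, the level of GSTP1 was 998 CPM per kb in shControl and 419 in shp63, and that of GSTK1 was 234 and 573, so that the order of these levels turned round. GSTA4, which conjugates the lipid peroxidation product 4-hydroxynonenal, rose 2.30-fold from 1.84 and 1.41 CPM to 3.79 and 3.71 CPM (adjusted p = 1.26e-07). GSTT1 rose from a mean of 32.9 to 49.6 CPM and GSTM2 from 1.70 to 2.67 CPM, and GSTO2 and GSTO1 fell 1.41-fold and 1.10-fold, none of them beyond 1.5-fold by the test. GSTO1 was not called without replicate 1 of shp63. GSTM4, with means of 44.8 and 47.7 CPM, GSTM3, with 2.36 and 1.96 CPM, and GSTZ1, with 12.8 and 13.5 CPM, were not called. GSTM4 was called higher without replicate 1 of shp63 (adjusted p = 0.00875). Of the 10 GST genes 3 were beyond 1.5-fold (30.0%, against 22.7% of all tested genes). UGT1A6, the only UGT gene among 19 rows to pass the count filter, fell 2.49-fold from 2.34 and 2.29 CPM to 0.942 and 0.917 CPM (adjusted p = 4.38e-07). DESeq2 did not call it beyond 1.5-fold, and the UGT1A genes share their last exons, so its count depends on read assignment.

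**Figure D3:**
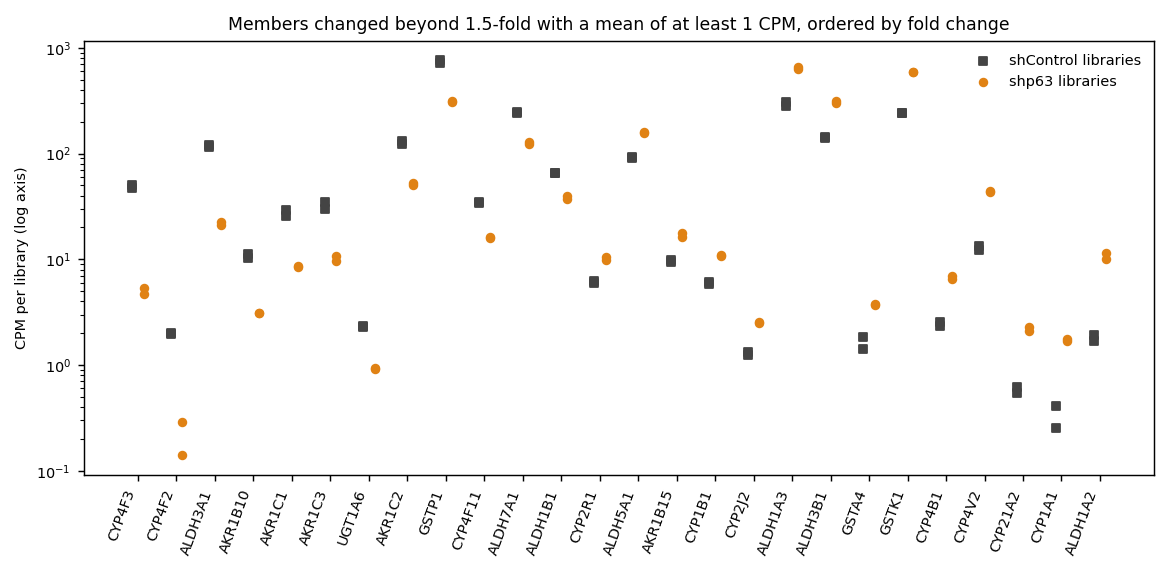
CPM of each library (log axis) for the 26 members beyond 1.5-fold with a mean of at least 1 CPM, ordered by fold change; squares are the 2 shControl libraries and circles the 2 shp63 libraries. For each gene both libraries of one group lie on the same side of both libraries of the other, from CYP4F3 at the left (47.0 and 50.3 against 4.71 and 5.41 CPM) to ALDH1A2 at the right (1.91 and 1.67 against 11.4 and 10.1 CPM).

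Per kilobase, the order of levels among members changed at the top. In shControl GSTP1 led, followed by GSTK1, AKR1B1 at 134, GSTO1 at 117 and ALDH1A3 at 85.2 CPM per kb. In shp63 GSTK1 led, followed by GSTP1, ALDH1A3 at 185, AKR1B1 at 124 and ALDH3B1 at 109 CPM per kb. ALDH3A1, sixth in shControl at 71.6 CPM per kb, was at 13.3 CPM per kb in shp63. These levels rest on 1 reference transcript per gene, whose ends the authors' annotation may place elsewhere.

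Members less than 500 kb apart formed 10 groups on the GRCh37 map. Leaving out CYP4F8, CYP4X1 and CYP4Z1, the called members went in opposite directions in 2 of the 10 groups and in one direction in 6, and 2 groups held fewer than 2 called members. On chromosome 19 the 5 CYP4F genes span 319.6 kb, and the 4 that did not enter through shp63 alone all fell, CYP4F3 (chr19:15751707-15773635) the most. The coding sequences of CYP4F2 and CYP4F3 were 91.5% identical, with 15.3% of 50-base windows shared, and those of CYP4F3 and CYP4F8 83.8%, with 1.46% shared. The fall of CYP4F2 thus depends on how shared reads were assigned. On chromosome 7, AKR1B10 (chr7:134212319-134226164) fell beside AKR1B15 (chr7:134233862-134264627), which rose. On chromosome 11, GSTP1 (chr11:67351213-67354127) fell while ALDH3B2 and ALDH3B1 (chr11:67776048-67796749) rose. On chromosome 17, ALDH3A1 (chr17:19641297-19652256) and ALDH3A2 both fell, by 2.42 and 0.50 on the log2 scale. CYP11A1 and CYP1A1 on chromosome 15 both rose, though CYP11A1 reached 10 reads in only 1 shControl library. CYP4B1, which rose, lies beside CYP4X1 and CYP4Z1 on chromosome 1. AKR1C1, AKR1C2 and AKR1C3 on chromosome 10 fell together, while AKR1E2 beside them was not called. GSTO1 and GSTO2 on chromosome 10 fell by 0.14 and 0.49, and ALDH4A1 and AKR7A2 on chromosome 1 by 0.14 and 0.27, all on the log2 scale and none beyond 1.5-fold. Of GSTM4, GSTM2 and GSTM3 on chromosome 1, GSTM2 was called, higher.

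**Figure D4:**
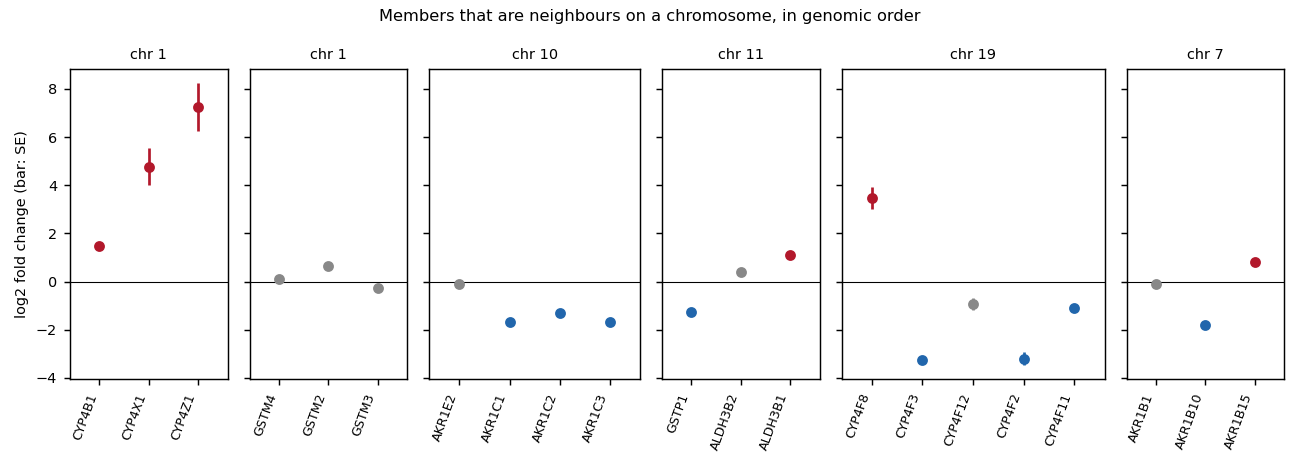
Log2 fold change with standard error for members that lie in groups of 3 or more neighbours, in genomic order within each panel; red and blue points are beyond 1.5-fold higher and lower, grey points are not. In the panels for chromosomes 7 and 11 called genes lie on both sides of 0; CYP4X1 and CYP4Z1 are fitted values on 1 and 0 shControl reads, and their direction and that of CYP4F8 was set by the count filter.

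Across the 52 promoters on hand, 7 (13.5%) held an antioxidant core, against 15% of 10665 promoters of tested genes and 13.6% of all 27305 promoters in the table. A xenobiotic core was found in 16 (30.8%), against 49.4% and 36.3%. Among members beyond 1.5-fold, the xenobiotic core was in 7 of 18 promoters of risers (38.9%), CYP1A1, ALDH1A2 and ALDH1A3 among them. It was in 1 of 10 promoters of fallers (10%), UGT1A6. Both shares were below the 49.4% of promoters of tested genes that held it. The 18 include CYP4F8, CYP4X1 and CYP4Z1, whose direction was set by the count filter, and CYP11A1, which passed it only together with shp63 libraries. The antioxidant core was in 3 of the 18 (CYP4F8, CYP4V2 and GSTA4) and in 2 of the 10 (CYP4F11 and GSTP1). The p53 family half-site was in 1 promoter, that of UGT1A6, or 1.92% against 5.48% of tested genes, and TATAAA was in 4 (7.69% against 3.83%), namely CYP1A1, CYP26B1, CYP2E1 and CYP4B1. These matches describe 300 bases each. Members without an entry in the table were AKR1B10, AKR1B15, ALDH16A1, ALDH2, ALDH3A1, ALDH3B2, CYP1B1, CYP24A1, CYP27B1, CYP2D6, CYP4F12 and GSTT1.

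Among sensors and regulators of these enzymes, a list of 23 genes, 21 were tested. Of these, 8 were called higher and 7 lower, and 4 were beyond 1.5-fold, all higher. AHR rose from 50.8 ± 0.765 in shControl to 86.7 ± 2.14 CPM in shp63 (SD, n = 2 each), or 1.71-fold (adjusted p = 1.57e-13). TIPARP, a feedback inhibitor of AHR, rose 1.65-fold from 54.7 and 53.4 to 89.2 and 89.5 CPM. AHRR, another repressor of AHR, had means of 3.64 and 4.10 CPM and was not called. NFE2L2, which encodes NRF2, went from 193 to 177 CPM (log2 fold change -0.12) and its inhibitor KEAP1 from 79.7 to 69.9 CPM (log2 fold change -0.19). RXRA, the partner of many nuclear receptors, and MAFG, a small MAF partner of NRF2, fell by 0.54 and 0.38 on the log2 scale. The other small MAF genes rose beyond 1.5-fold, MAFK 2.91-fold from 200.1 and 234 CPM to 661 and 599 CPM and MAFF 2.89-fold from 2.81 and 2.96 CPM to 8.17 and 8.52 CPM. The xenobiotic receptor genes NR1I2 and NR1I3 had almost no reads.

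Partner genes are read against the 36.9% of all tested genes called higher and the 37.1% called lower, and no list was tested against other genes. Of 12 electron donors and partners of the P450 enzymes 7 were called higher and 2 lower. POR, the reductase of microsomal P450 enzymes, rose 1.15-fold from 75.4 to 86.8 CPM, while FDXR, the reductase of the mitochondrial ones, fell by 1.03 on the log2 scale from 46.4 to 22.8 CPM. CYB5R1 and PGRMC2 rose 2.50-fold and 2.21-fold, and CYB5R4 fell by 0.51 on the log2 scale. Of 19 other oxidising and reducing enzymes 10 were called lower and 6 higher. XDH, xanthine dehydrogenase, fell by 1.59 on the log2 scale from 27.5 to 9.11 CPM, and the carboxylesterase CES2 by 0.61. AOX1, aldehyde oxidase, rose 3.07-fold from 6.11 to 18.8 CPM, and FMO5, a flavin monooxygenase, rose 2.13-fold. Of 21 conjugating enzymes and suppliers of their cosubstrates 10 were called higher and 7 lower. SULT2B1, a sterol sulfotransferase, and MGST2, a membrane glutathione transferase, rose 2.10-fold and 1.77-fold. GCLM, a subunit of the enzyme that starts glutathione synthesis, and NNMT fell by 0.63 and 0.48 on the log2 scale. The share called in each of these lists was 71.4% to 85.7%, near the 74.0% of all tested genes, and the share beyond 1.5-fold 19.0% to 31.6%, near 22.7%.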

How the data were processed

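Poly(A) RNA was sequenced, with a stranded library kit per the labels' protocols, from 4 H226 cultures, 2 shControl and 2 shp63, which the series' design text calls independent biological replicates. The authors deposited raw read counts, 1 row per gene symbol, without normalization. Per the series' design text, the authors aligned reads with TopHat2 to GRCh37 counted them with HTSeq and tested them with DESeq2. TopHat2 was version 2.0.13 and HTSeq version 0.6.1, per the submitters' processing notes. Which annotation and strand setting served the counting is not given in the sources used here. Overlapping, antisense and paralogous genes are therefore uncertain. Members and lists were chosen with earlier results of these data known.

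The tests used edgeR 4.0.16 (R 4.3.3): TMM factors (0.966 to 1.03), filterByExpr defaults (minimum count 10, minimum total 15; 10468 genes left out), a robust quasi-likelihood fit with group as the only term on all libraries, glmTreat at 1.5-fold, and Benjamini-Hochberg adjustment over all 14901 genes at 0.05. The common biological coefficient of variation was 0.0308. A standard error is the size of the log2 fold change over the root of its F statistic. Replicates differed by more than counting alone gives (chi-square per degree of freedom 3.30 in shControl and 3.60 in shp63). The p-values reflect only how far cultures of 1 line differed.

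Pseudogenes were taken from RefSeq, by which AKR7L is one, and from symbols. Positions, transcript lengths and coding sequences came from GENCODE v44 on GRCh37 (canonical transcript; for GSTT1 the longest) and promoters from RefSeq. Coding sequences were aligned with Biopython 1.88. Every member could be named, with full values for members beyond 1.5-fold and the most abundant of each group. Of each list of other genes up to 2 called genes of smallest adjusted p per direction with at least 5 CPM were named, with AHR, NFE2L2, KEAP1 and POR. MAFK, MAFF, AHRR, NR1I2, NR1I3 and the marker genes were named after their values were seen. Alternatives were RLE factors, library totals, no filter, a filter of 1 CPM in 2 libraries, DESeq2 1.42.0, limma-voom (limma 3.58.1), a replicate block and each library left out.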

Additional observations from a re-analysis of the deposited data

Results flagged for a closer look

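The pseudogene row CYP21A1P, which no comparison above uses, was higher in shp63 than in the control libraries. It had 12 and 14 reads in shControl and 97 and 69 in shp63 (log2 fold change 2.76, SE 0.272, adjusted p = 6.29e-09, edgeR with Benjamini-Hochberg), while its coding relative CYP21A2 had 30 and 33 against 109 and 115. How reads shared by the 2 genes were assigned was not tested.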

How the results depend on the processing

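Counts of members called and beyond 1.5-fold stayed within 1.5 times their values under every alternative run. Over the alternatives other than the 1 CPM filter, which tested 53 of the 64 members, 46 to 51 members were called. Members beyond 1.5-fold numbered 25 with DESeq2 (39.1%, against 15.8% of all genes), 27 of 53 with the 1 CPM filter, and 29 to 32 otherwise. All 25 of DESeq2 were among the 32. With library totals alone the median log2 fold change of tested members became -0.006485 in place of 0.08, where the median of all genes was also lower, at -0.10, and ALDH2 turned from 0.02 to -0.06454 and was called. Of 757 values of single members under the alternatives, 12 lost their call and 7 gained one besides ALDH2, and the cause was not tested. With the replicate block 49 members were called and 32 were beyond 1.5-fold, the same genes as without it, and 10858 genes in all. Deviations of same-numbered libraries had a correlation of -0.112, so a crossed pairing was added after seeing the data, with 50 members and 11387 genes called. Leaving out 1 library gave 17 to 19 members higher and 12 or 13 lower beyond 1.5-fold. CYP4X1 moved from 4.78 to 7.03 without replicate 1 of shControl and to 3.94 without replicate 2. Genes at a few reads, such as CYP4Z1 and ALDH1A1, are limited by depth.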
